A study of Mus musculus with 2 samples.

Results

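Hand2-negative arch mesenchyme is described here as a set of cells from the mandibular arches of E9.5 mouse embryos, the embryonic tissue that forms the lower jaw. The cells were chosen by measured values: a cell had to hold 200 to 5500 genes and at most 10% mitochondrial UMIs (a UMI is 1 counted transcript molecule), at least 2 UMIs of Twist1 and Prrx1 together, 0 UMIs of Hand2, Sox10, Epcam and Cdh5, and at most 2 UMIs of Tbx1, Msc and Tcf21 together. This left 3160 members, 24.8% (exact binomial 95% interval 24.0 to 25.6%) of the 12744 cells kept at E9.5, out of 24099 cells kept in both libraries of the series. All intervals given here cover counting error only.

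The E9.5 library held unsorted cells, epithelium and mesenchyme together, from the mandibular arches of 8 littermates pooled before dissociation, and the E12.0 library held sorted GFP-positive mandibular epithelium pooled from 6 embryos. All embryos carried K14Cre;R26mT/mG, in which Cre driven by the keratin 14 promoter switches a membrane reporter from tdTomato to GFP in epithelium. This reporter begins to mark epithelium only after E9.5, so it separates no cells in the younger library. There was 1 library per stage and no replicate, so no test could be run and each difference described here is one between cells of a single pool. The E9.5 table held 208540526 UMIs in 14293 barcodes. The members held 41316327 of them, with a median of 14084.5 UMIs and 3805 genes per cell, against a median of 13460.5 UMIs over all kept cells. Between the 2 libraries 51 barcodes were shared.

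Most arch mesenchyme at this stage descends from cranial neural crest, which leaves the dorsal neural tube as Sox10-expressing cells and takes up Twist1, Prrx1 and Pdgfra in the arch. Endothelin 1 from the arch epithelium, received by the receptor Ednra on crest cells, turns on Dlx5 and Dlx6 in the ventral arch, and Hand2 lies downstream of them in its distal cap. Cells without Hand2 are therefore usually placed proximally in the arch or in the maxillary domain, where genes such as Pou3f3 and Nr2f1 are active. A mesodermal core, the source of jaw muscle, marked by Tbx1, Msc, Tcf21 and Lhx2, runs through the centre of the arch beside blood vessels.

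The genes that set the rule lie on several chromosomes. In GRCm38, Twist1, a bHLH factor of mesenchyme, spans 33957671 to 33959829 on chromosome 12 (plus strand), and Prrx1, a homeobox factor of limb and head mesenchyme, 163245119 to 163313710 on chromosome 1 (minus strand). The excluded genes were Hand2, a bHLH factor of the distal arch and heart (chromosome 8, 57320983 to 57324633, plus strand), Sox10, a factor of early crest and glia (chromosome 15, 79154908 to 79165240, minus strand), Epcam, an epithelial adhesion molecule (chromosome 17, 87635979 to 87651129, plus strand), and Cdh5, the cadherin of blood vessels (chromosome 8, 104101625 to 104144511, plus strand).

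The steps of the rule each removed a defined set. Of the kept cells, 7220 held at least 2 UMIs of Twist1 and Prrx1, and 5829 of those held no Epcam UMI. A further exclusion of Cdh5 left 5669 cells, the limit on core mesoderm genes left 5379, the exclusion of Sox10 left 3935 and the exclusion of Hand2 left 3160. The members were well past the mesenchymal threshold, with a median of 13 UMIs of Twist1 and Prrx1 together (quartiles 5 and 19), and 270 cells sat on it at exactly 2. These 270 cells were shallow, with a median of 3525.5 UMIs, and held Krt18, an epithelial keratin, at 54.4 CPM (the UMIs of a gene in a set of cells, scaled to 1000000 UMIs of that set). The 446 cells just outside, with 1 such UMI and a median of 3137.5 UMIs, held Krt18 at 184 CPM and Prrx2, a mesenchymal homeobox gene, at 165 CPM against 260 CPM inside. Cdh11, a mesenchymal cadherin, did not separate them, at 74.1 CPM inside and 74.9 CPM outside, nor did Pdgfra, the PDGF receptor of arch mesenchyme, at 10.2 CPM (5.46 to 17.5) inside and 7.07 CPM (3.96 to 11.7) outside, both below the 46.8 CPM of all members. At the limit on core genes, Lhx2 was at 16.3 CPM in the 50 members with 2 core UMIs and at 79.8 CPM in the 40 cells with 3. The Hand2 limit was a single molecule, and 365 of the 775 cells that met the rest of the rule but held Hand2 had just 1 UMI of it. Of the cells set aside for Sox10, 885 met every other condition and held just 1 Sox10 UMI.

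The label was checked against genes the rule did not use. A gene was called higher or lower when its CPM, with 5 CPM added to both groups, differed at least 1.5-fold, and was compared when it reached 10 CPM in either group. The counts of called genes include those the rule used. A gene that reached 10 CPM in a single group could be called higher only there, so the direction of such a call is a description. Pdgfra (GRCm38 chromosome 5, 75152292 to 75198215, plus strand), was at 46.8 CPM in the members (95% Poisson interval 44.7 to 48.9) and at 3.24 CPM (2.61 to 3.99) in 2418 cells with Epcam but no Twist1 or Prrx1. Prrx2 was at 333 against 40.1 CPM, Cdh11 at 202 against 21.1 CPM, and Snai1, a repressor of epithelial genes, at 68.7 against 4.29 CPM. Of 8286 genes compared with the Epcam-positive cells, 444 (5.36%) were higher in the members and 1375 (16.6%) lower, or 22% in either direction. Of the 11 compared genes in a list of 12 mesenchyme genes 10 were higher, with a median log2 ratio of 2.59 beside -0.12 over all genes, but Pdgfra, Snai1, Zeb1, Zeb2 and Col3a1 were compared only through their level in the members, so the count is a description. The list of 10 epithelial genes summed to 63.6 CPM in the members against 1757 CPM. Krt8 and Krt18 were the 2 above 10 CPM in the members, at 20.8 against 453 CPM and at 25.5 against 737 CPM, and the other 7 compared entered only through the Epcam-positive cells, where they were high.

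**Figure D1:**
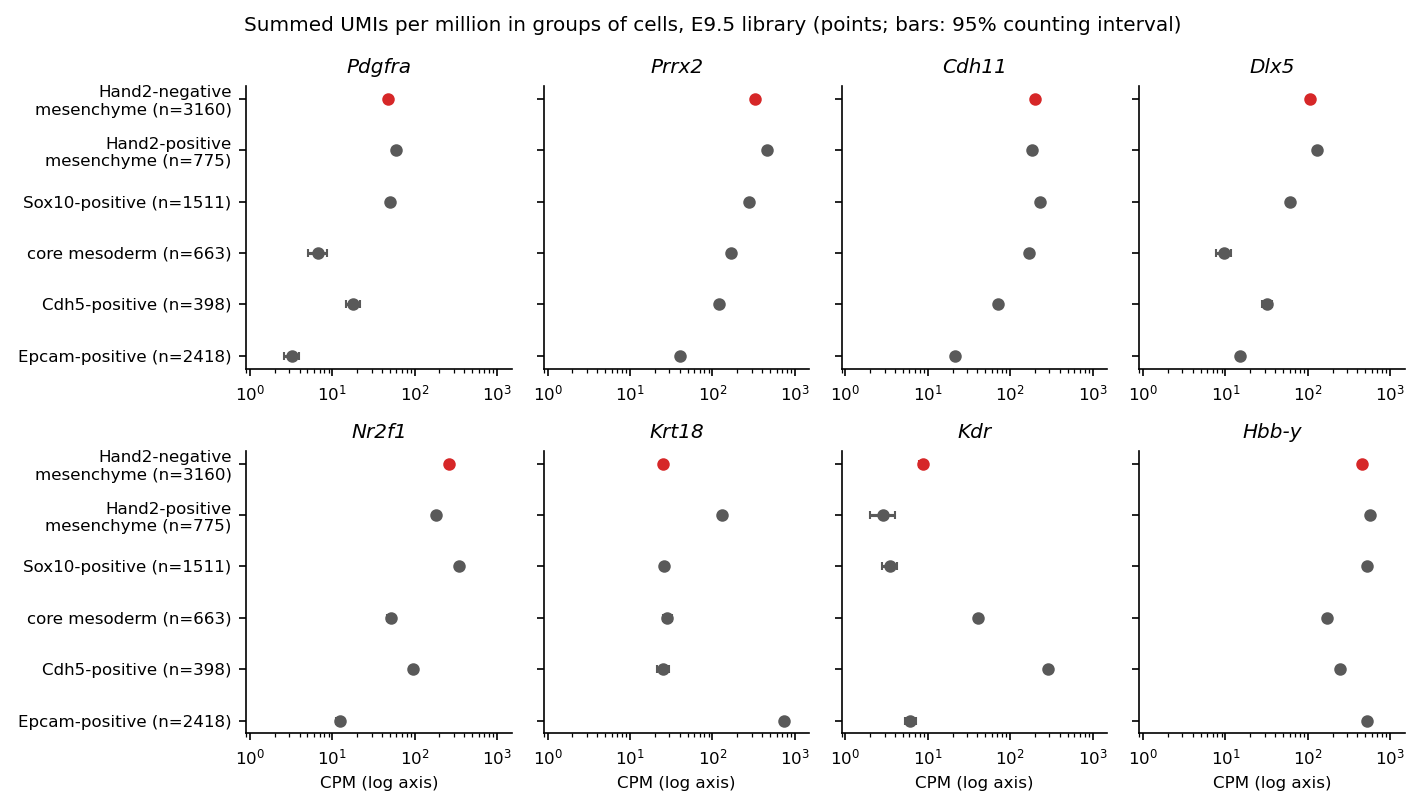
Summed UMIs scaled to 1000000 UMIs of each group (CPM, log axis) of marker genes in the members and in the groups of E9.5 cells beside them, with bars for the 95% counting interval. Pdgfra sits at 46.8 CPM in the members and at 3.24 CPM in the Epcam-positive cells.

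The word "proximal" was not borne out by any called gene in the same check. Pou3f3, which marks the maxillary and proximal first arch, was at 0.992 CPM in the members, 41 UMIs in all, and at 0.330 CPM, 4 UMIs, in the 775 Hand2-positive mesenchymal cells. Of 9 compared genes in a list of 12 proximal and maxillary genes, 0 were higher in the members and 3 were lower, with a median log2 ratio of -0.13 beside -0.03 over all 7651 genes. That median turned to 0.53 over the 3 genes at 50 CPM or more and to 0.09 in cells with a Dlx5 or Dlx6 UMI, and Meis1 and Irx5 were compared only through their level in the Hand2-positive cells, so nothing is read from the count or the median. The 3 lower genes were Meis1, a homeobox cofactor (4.02 against 41.1 CPM), and the Iroquois genes Irx3 (10.3 against 22.8 CPM) and Irx5 (9.03 against 17.2 CPM). Without cells holding Hoxa2 or Hoxb2, neither Irx3 nor Irx5 passed the limit, with log2 ratios of -0.58 and -0.35 at 5 CPM added. The orphan nuclear receptors Nr2f1 and Nr2f2, which have proximal roles in arch crest, were at 263 against 180 CPM and at 111 against 72.6 CPM, with log2 ratios of 0.54 (0.48 to 0.61) and 0.61 (0.50 to 0.71) and were both under the 1.5-fold limit with 5 CPM added. The members are therefore called by their rule, Hand2-negative arch mesenchyme, and no position is given to them.

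Against Hand2-positive mesenchyme the members had more genes lower than higher, and genes of the distal arch were among the lower ones. Of 7651 genes compared, 36 (0.471%) were higher in the members and 233 (3.05%) lower, or 3.52% in either direction. In a list of 12 distal arch genes without Hand2, 7 were compared, 5 were lower and 0 higher, with a median log2 ratio of -1.03. That median was -0.62 with no filter on low values and -0.35 in cells with Dlx5 or Dlx6, where 1 of 4 compared was lower. Hand1, Bmp4 and Gata3 were compared only through their level in the Hand2-positive cells. Hand2 is a known partner of the distal genes, and the rule used Hand2 itself, so these counts describe the split and are not read as support for it.

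Msx2, a homeobox gene of distal arch and BMP signalling (GRCm38 chromosome 13, 53466884 to 53473074, minus strand), was at 42.7 CPM in the members and 108 CPM in the Hand2-positive cells, a log2 ratio of -1.34 (-1.44 to -1.24). Its relative Msx1 was at 69.8 against 124 CPM. Hand1, the paralogue of Hand2, was at 1.09 CPM (0.794 to 1.46) against 22.2 CPM. Hand1 transcripts in the members came to 45 UMIs in 3160 cells, and the Hand2-positive cells held 269 in 775. Bmp4, a ligand that induces Msx genes, was at 1.04 against 11.5 CPM over all cells and at 0.780 against 2.36 CPM in cells with Dlx5 or Dlx6. Gata3, a zinc-finger factor of the distal arch, was at 2.52 against 10.4 CPM over all cells. The other compared members of the list were the T-box genes Tbx2, at 12.3 against 10.1 CPM, and Tbx3, at 23.3 against 28.8 CPM, and neither passed the limit in either direction.

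Both populations held Dlx genes, and 4 of the 5 compared passed the limit in neither direction. Dlx5, a homeobox gene of the ventral arch (GRCm38 chromosome 6, 6877805 to 6882085, minus strand), was at 107 CPM in the members and 130 CPM in the Hand2-positive cells, and its neighbour Dlx6 (6863334 to 6868568, plus strand) at 59.7 against 81.9 CPM. Dlx1 and Dlx2, which are expressed along the whole arch, were at 52.1 against 38.9 CPM and at 59.1 against 48.2 CPM. Dlx3, the most distally restricted of the compared Dlx genes, was the 1 of 5 that passed the limit, at 7.38 against 16.5 CPM. A set with 0 Hand2 UMIs was thus not a set without Dlx5 and Dlx6. Of the Hand2-positive cells 47.1% held just 1 Hand2 UMI. Whether members with 0 Hand2 UMIs lacked the transcript or were not sampled for it cannot be told apart. Barx1, a homeobox gene of molar and jaw mesenchyme, and Zfp503, a zinc-finger gene, were the 2 compared genes of an intermediate arch and jaw joint list. Both were lower, Barx1 at 46.2 against 76.4 CPM and Zfp503 at 3.12 against 21.3 CPM. Dlx3 and Zfp503 were compared only through their level in the Hand2-positive cells, so their directions are a description. The log2 ratio of Barx1 with 5 CPM added, -0.67, was -0.35 with the rule applied to thinned cells and -0.53 in cells of the middle depth range, both under the limit. Nkx3-2, the jaw joint gene, and Emx2 had 0 UMIs in the members.

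**Figure D2:**
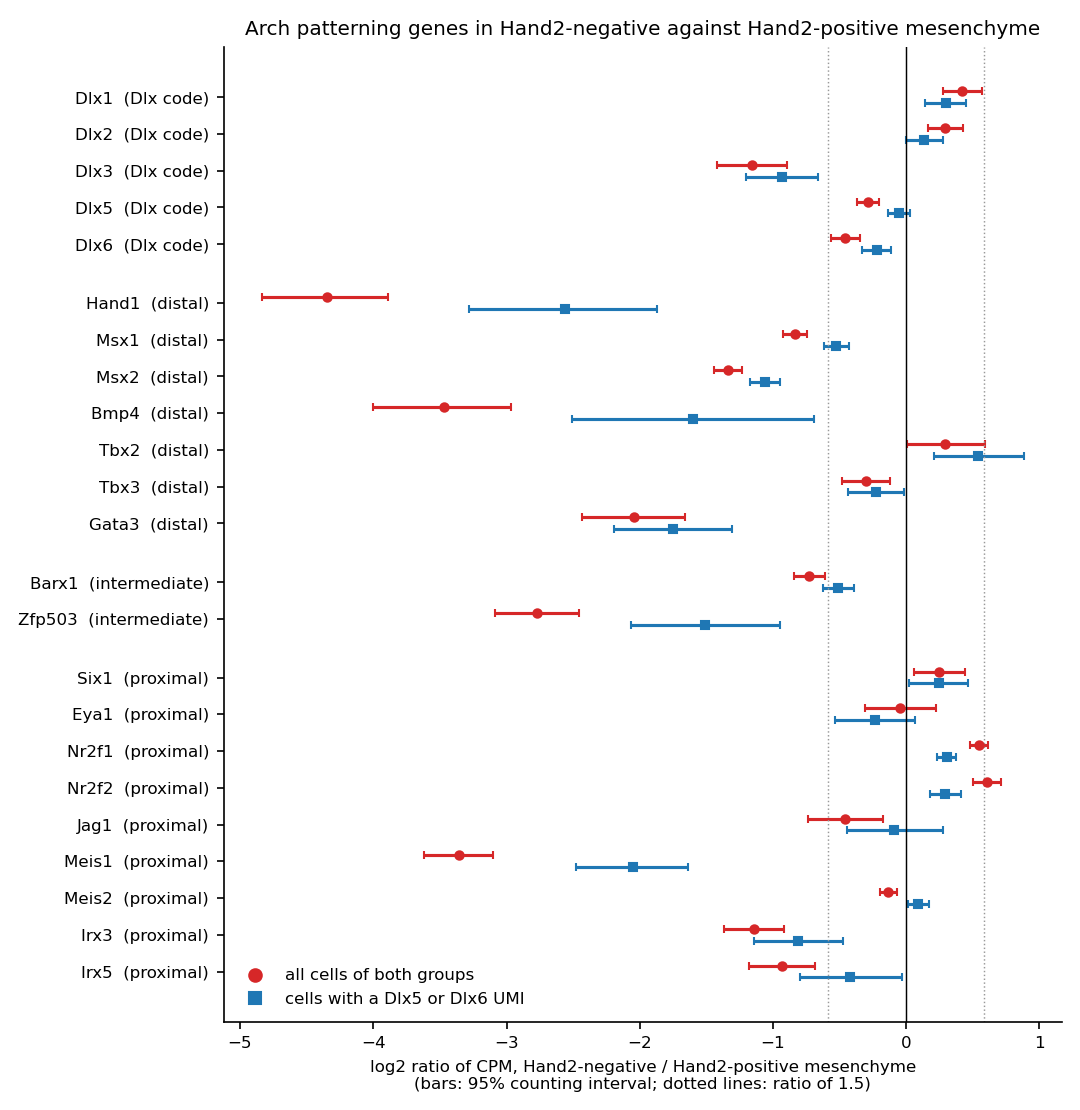
Log2 ratio of CPM, members over Hand2-positive mesenchyme, for arch patterning genes in all cells (circles) and in cells with a Dlx5 or Dlx6 UMI (squares), with 95% counting intervals and dotted lines at a ratio of 1.5. Msx2 lies at -1.34 over all cells and at -1.06 in cells with Dlx5 or Dlx6.

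Few genes were higher in the members. Mef2c, a MADS-box factor downstream of Ednra in crest (GRCm38 chromosome 13, 83504034 to 83667080, plus strand), was at 186 CPM (182 to 190) against 108 CPM (102 to 114), a log2 ratio of 0.79 (0.70 to 0.87). It was the 1 of 5 compared endothelin pathway genes past the limit, and Ednra itself was at 15.9 against 11.8 CPM. In a list of migratory and glial crest genes, 3 of 7 compared were higher. They were Ets1, an ETS factor of migrating crest (63.8 against 33.3 CPM), Tfap2b, an AP-2 factor of crest (65.7 against 35.6 CPM), and Fabp7, a fatty-acid binding protein of glial precursors (22.4 against 12.9 CPM). Spry4, a feedback inhibitor of FGF signalling, was at 15.2 against 7.50 CPM, and Foxd2, a forkhead gene of arch mesenchyme, at 41.9 against 24.6 CPM. In cells with Y-linked UMIs, the log2 ratios of Fabp7 and Spry4 with 5 CPM added were 0.46 and 0.38, under the limit. Spry4 was under it in thinned cells too, at 0.52. Without cells holding Hoxa2 or Hoxb2, Fabp7 at 0.531 and Foxd2 at 0.575 were also under it. Outside the lists the genes with the largest ratios were Etv2, an ETS factor that starts the endothelial and blood programme (34.8 against 9.15 CPM, but 18.8 CPM in the members without a cluster of 198 of them), the chemokine gene Ccl6 (24.6 against 6.76 CPM), and Pou3f1, a POU factor (19.9 against 5.11 CPM). Ebf2 and Ebf1, early B-cell factors also active in mesenchyme, were at 36.6 against 12.1 CPM and at 26.3 against 10.9 CPM, whereas their relative Ebf3 went the other way, at 23.4 against 59.7 CPM.

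Several genes lower in the members are not arch patterning genes. Acta2, smooth muscle actin, was at 8.66 against 120 CPM, and Col1a1, a fibrillar collagen, at 2.64 against 40.2 CPM. Sparc, a matrix glycoprotein, was at 24.9 against 129 CPM, Tgfb2, a TGF-beta ligand, at 9.22 against 60.8 CPM, Dkk1, a WNT inhibitor, at 5.08 against 23.7 CPM, and Cdkn1c, an inhibitor of the cell cycle, at 63.0 against 182 CPM. Markers of other cell types moved with this split. The list of 6 cardiac and pericardial genes summed to 2.18 CPM in the members, led by Myl7 at 1.19 CPM with none of the 6 at 0, and to 45.7 CPM in the Hand2-positive cells, through which alone its 2 compared genes, both lower, passed the 10 CPM minimum. The 10 epithelial genes summed to 63.6 against 252 CPM, with Krt18 at 25.5 against 131 CPM and Krt8 at 20.8 against 106 CPM, both lower of 2 compared. The 7 core mesoderm genes summed to 33.8 against 118 CPM, led by Ebf3 with Myod1 and Musk at 0. All 3 compared were lower, among them Isl1, a gene of cardiac progenitors, at 5.83 against 43.0 CPM. Hoxb2, a gene of the second arch, was at 0.387 against 11.3 CPM. Of the 3 core mesoderm genes Ebf3 alone reached 10 CPM in the members. The others and Hoxb2 were compared only through the Hand2-positive cells, as were Acta2, Col1a1, Tgfb2 and Dkk1, so these directions are a description. The part of these other cells in the difference was not tested, and fewer such cells and less RNA of these genes per cell cannot be told apart in summed counts.

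In 5 signalling lists the called genes were mostly lower in the members, beside 3.52% of all genes called in either direction. No list was tested against all genes, and the FGF and retinoic acid lists held 1 call each. Many of the calls were lost in cells with a Dlx5 or Dlx6 UMI. In the BMP and TGF-beta list 3 of 10 compared genes were lower and 0 higher (median log2 ratio -0.35), with the ligand gene Bmp5 at 2.76 against 18.5 CPM and Smad7, an inhibitor of the pathway, at 27.9 against 45.8 CPM beside Tgfb2. Among WNT genes 4 of 9 were lower and 0 higher (median -0.33), Lef1, a transcription factor of the pathway, at 27.1 against 53.8 CPM, and the feedback inhibitors Axin2 and Nkd1 at 9.54 against 17.4 CPM and at 7.89 against 20.3 CPM. Several of these genes, such as Bmp5, Tgfb2 and Dkk1, were compared only through their level in the Hand2-positive cells, so the counts are a description. In cells with Dlx5 or Dlx6 each of these lists gave 1 lower gene of 9, and Lef1, at 27.6 against 33.6 CPM, and Smad7, at 29.7 against 41.9 CPM, were under the limit. Axin2 and Nkd1 were under it there too, at log2 ratios of -0.42 and -0.31 with 5 CPM added. Without cells holding Hoxa2 or Hoxb2 theirs were -0.58 and -0.49, and in thinned cells that of Axin2 was -0.53, all under the limit. In the Hedgehog list 3 of 7 were lower, the receptor Ptch1 at 49.3 against 77.6 CPM, the co-receptor Gas1 at 57.3 against 96.1 CPM and the effector Gli2 at 3.51 against 10.3 CPM. Foxd2 was the 1 higher (median -0.24), and Gli2 was compared only through its level in the Hand2-positive cells. In cells with Dlx5 or Dlx6 the list gave 1 lower, Gas1, and 0 higher of 6, with Ptch1 at 52.1 against 77.1 CPM, and with the rule applied to thinned cells Gas1 fell under the limit, at a log2 ratio of -0.28. Of 7 compared FGF genes Spry4 alone was called (median 0.37), and in thinned cells it was under the limit, at a log2 ratio of 0.52. Crabp2, a retinoic acid carrier, was the 1 of 5 retinoic acid genes called, at 76.3 against 122 CPM (median -0.19), and its log2 ratio with 5 CPM added, -0.64, was -0.40 with the rule applied to thinned cells and -0.55 in the middle depth range, both under the limit.

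Among matrix genes 3 of 13 were lower in the members than in the Hand2-positive cells and 0 higher (median -0.15), with fibronectin, Fn1, at 81.0 against 146 CPM beside Col1a1 and Sparc. Of 13 PDGF, chemokine and guidance genes 4 were lower and 0 higher (median -0.34), the semaphorin receptor Nrp1 at 9.51 against 24.7 CPM among them with its ligand gene Sema3a at 11.2 against 20.4 CPM. Col1a1 and Nrp1 were compared only through their level in the Hand2-positive cells, so these counts are a description. In cells with Dlx5 or Dlx6 the matrix list gave 1 lower of 11, Fn1 was at 76.8 against 84.3 CPM, and Nrp1 and Sema3a did not pass the limit. The proliferation genes gave 1 call of 9, Cdkn1c (median -0.12), and the mesenchyme list 2 lower of 11, Col1a2, a fibrillar collagen, at 50.3 against 115 CPM and Snai2, a repressor of epithelial genes, at 14.7 against 25.1 CPM (median -0.30). Sox6, a cartilage factor, was the 1 compared gene of the skeletal list and was lower, at 9.17 against 18.1 CPM, compared only through its level in the Hand2-positive cells. Neither Sox6 nor Snai2 passed the limit in cells with Dlx5 or Dlx6. Hoxb2 was the 1 of 2 compared genes of anterior-posterior identity that was lower, and it too was compared only through the Hand2-positive cells. The single compared genes of the head mesoderm and endothelial lists, and all 4 compared blood genes, passed the limit in neither direction, and no gene of the endoderm or neuron and placode lists reached 10 CPM in either group.

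Where both groups were limited to cells with a Dlx5 or Dlx6 UMI, 1864 members and 568 Hand2-positive cells, the difference was smaller. Of 7469 genes compared, 25 (0.335%) were higher in the members and 66 (0.884%) lower. The cardiac list summed to 2.20 against 4.21 CPM, with Tnnt2 at 0.425 against 1.33 CPM and Myh6 at 0 in the members, and the epithelial list to 52.7 against 90.6 CPM. All 4 compared blood genes were lower, summed to 747 against 1412 CPM. Of 4 compared distal genes 1, Msx2, was lower. It was at 55.9 against 116 CPM, a log2 ratio of -1.06 (-1.17 to -0.95), and Hand1, too low to be compared, was at 0.957 against 5.64 CPM, whereas Msx1 at 93.9 against 135 CPM and Barx1 at 63.9 against 90.9 CPM did not pass the limit. Mef2c was at 194 against 105 CPM, a log2 ratio of 0.88 (0.79 to 0.98), Tfap2b at 66.1 against 41.3 CPM and Spry4 at 15.7 against 8.0 CPM, and these 3 were higher here too. Ets1 at 53.3 against 36.2 CPM, Fabp7 at 21.8 against 15.4 CPM, Foxd2 at 43.0 against 28.5 CPM and Ebf1 did not pass the limit in these cells, and the crest list gave 1 higher of 7 compared. Meis1 was at 2.94 against 12.2 CPM and Ebf3 at 27.8 against 59.6 CPM, both lower. The proximal and maxillary list had a median log2 ratio of 0.09 here and the distal list one of -0.35. Among cells without a Dlx5 or Dlx6 UMI, 1296 members against 207 Hand2-positive cells, 298 of 8242 genes (3.62%) were higher and 1255 (15.2%) lower. Markers of other cell types moved with this comparison. The cardiac list summed to 2.14 CPM in the members against 215 CPM, with Wt1 at 0 in the members, the epithelial list to 87.1 against 910 CPM, with Krt5 at 0, and the core mesoderm list to 32.5 against 295 CPM, with Myod1 and Musk at 0. Blood genes ran the other way, at 1456 against 151 CPM in sum, led by Hbb-y at 657 CPM, and 4 of 4 compared were higher. Haemoglobin rested on few cells on both sides, since 6 members held 33709 of the 40021 haemoglobin UMIs of the members and 2 Hand2-positive cells 12413 of 14080, and without them the full groups were at 153 and 138 CPM. The part of the cardiac, epithelial and core mesoderm markers in the counts was not tested.

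The number of Hand2 molecules gave a finer view. Cells of both groups were thinned to 6000 UMIs each, which left out 743 members and 48 Hand2-positive cells that were shallower. The members formed the bin of 0, Hand2-positive cells were binned by the Hand2 UMIs left after thinning, and those with none left were not used. The bin of 0 was thus set at full depth and the others after thinning, and its gap to them is that of the rule. Msx2 was at 44.6 CPM in the 2417 members, at 108 CPM in the 282 cells with 1 and at 111 CPM in the 128 cells with 2 or 3. Hand1 was at 1.17, 28.4 and 63.8 CPM over the same bins, and at 0.816, 8.55 and 27.8 CPM in cells with Dlx5 or Dlx6, of which there were 1226, 156 and 60. Dlx5 was at 105, 111 and 95.1 CPM. Mef2c was at 186, 95.7 and 79.4 CPM, and at 192, 94.0 and 69.4 CPM in cells with Dlx5 or Dlx6. In the 18 cells with 4 or more Hand2 UMIs, however, Mef2c was at 194 CPM (120 to 297), a level within the counting error of that in the members. Nr2f1 was at 270, 167 and 88.5 CPM, and at 246, 201 and 139 CPM in cells with Dlx5 or Dlx6. Krt18 moved with the bins too, at 26.7, 163 and 326 CPM, and at 19.3, 38.5 and 75 CPM in cells with Dlx5 or Dlx6, as did the cardiac gene Tnnt2, at 0.483, 21.3 and 43.0 CPM and at 250 CPM with 4 or more UMIs, and Isl1, at 7.93, 58.5 and 109 CPM. Their part in these values was not tested.

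**Figure D3:**
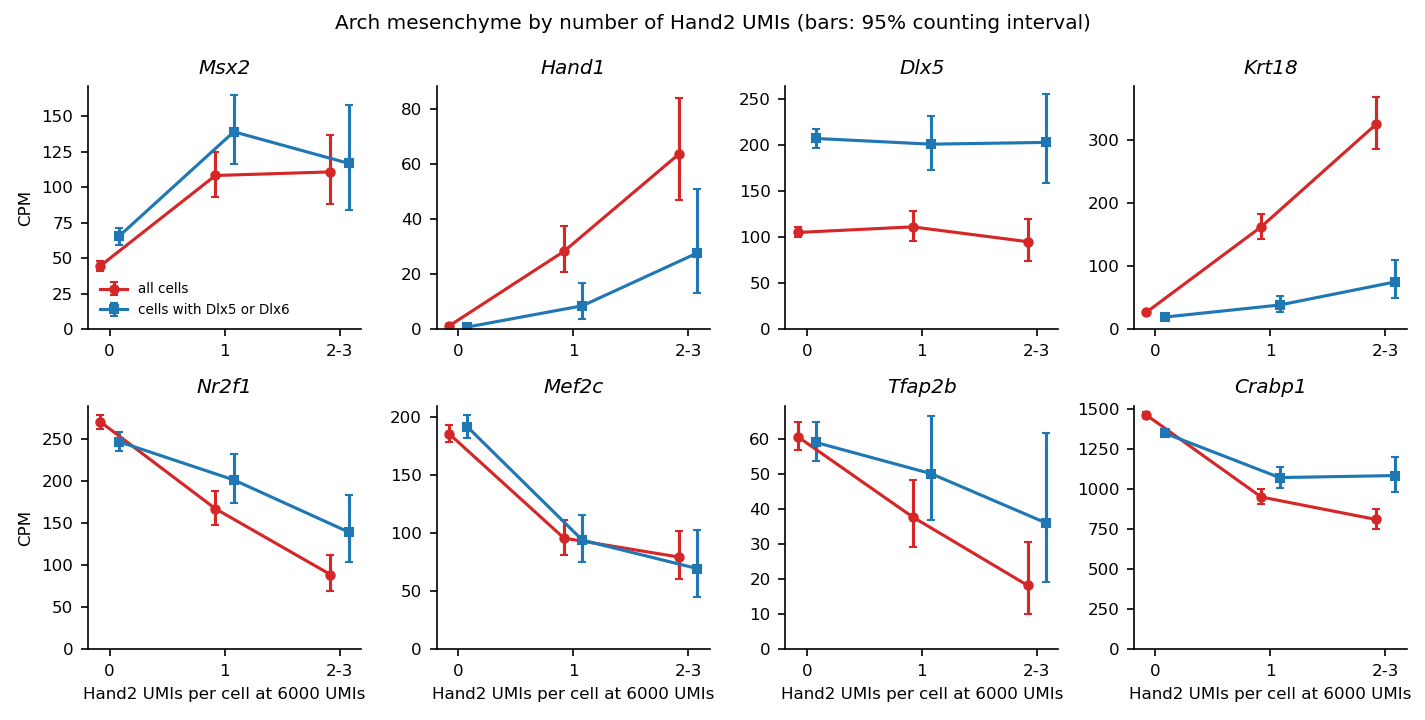
CPM of Msx2, Hand1, Dlx5, Krt18, Nr2f1, Mef2c, Tfap2b and Crabp1 in arch mesenchyme with 0, 1 or 2 to 3 Hand2 UMIs per cell after thinning to 6000 UMIs. Values are for all cells and for cells with Dlx5 or Dlx6, with 95% counting intervals. The 18 cells with 4 or more are not drawn. Mef2c goes from 186 to 79.4 CPM over the drawn bins in all cells, and is at 194 CPM in the cells not drawn.

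Dlx5 and Dlx6 also divided the members themselves. At 6000 UMIs, 1226 of 2417 members (50.7%, interval 48.7 to 52.7%) held a UMI of either gene, against 57.9% of Hand2-positive cells, 29.7% of Sox10-positive cells and 11.3% of Epcam-positive cells, a group with a median of 11257 UMIs before thinning against 14084.5 in the members. The share in the members was above that background. Whether members with 0 UMIs of both genes lacked the transcripts or were not sampled for them cannot be told apart. Of 7515 genes compared between thinned members with and without these UMIs, 26 (0.346%) were higher with them and 75 (0.998%) lower, or 1.34% in either direction. Without thinning, 0.657% of 7457 genes were higher and 0.992% lower, 1.65% in all. Barx1 was at 69.3 against 17.6 CPM, Msx1 at 105 against 39.6 CPM, Msx2 at 65.3 against 23.4 CPM and Dlx3 at 12.4 against 2.80 CPM. In all, 2 of 4 compared distal genes and 3 of 5 Dlx genes were higher, the latter counting Dlx5 and Dlx6, which define the split. Wnt5a, a non-canonical WNT ligand of outgrowth, was at 113 against 46.5 CPM, the ephrin receptor Epha3 at 14.3 against 4.90 CPM, and Epha7 at 22.2 against 9.24 CPM. Outside the lists, Mab21l1, a gene of craniofacial mesenchyme, was at 14.8 against 2.10 CPM and Unc5c, a netrin receptor, at 61.7 against 30.5 CPM. Dlx3, Epha3, Epha7 and Mab21l1 reached 10 CPM only in the members with Dlx5 or Dlx6, so their directions and the Dlx count are a description. Dlx1 at 53.4 against 47.2 CPM, Dlx2 at 62.9 against 55.6 CPM and Pdgfra at 44.9 against 49.5 CPM passed the limit in neither direction.

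The members without Dlx5 or Dlx6 held more of a second group of genes. Nrp2, a semaphorin and VEGF co-receptor, was at 17.8 CPM with and 51.8 CPM without Dlx5 or Dlx6, and Sfrp1, a WNT inhibitor, at 74.6 and 125 CPM. Irx3 was at 5.85 and 16.5 CPM and Irx5 at 6.12 and 12.3 CPM. Of the endothelial list 3 of 4 compared genes were lower with Dlx5 or Dlx6, and of the blood list 0 of 4 in either direction, against 4 of 4 lower without thinning. Kdr, the VEGF receptor, was at 2.18 and 17.8 CPM, Lmo2, a cofactor of the blood programme, at 4.49 and 22.5 CPM, Tal1, its bHLH partner, at 1.22 and 10.8 CPM, and Etv2 at 19.8 and 50.7 CPM. Fst, an inhibitor of activin and BMP, was at 0.952 and 16.5 CPM, and Foxd1, a forkhead gene, at 0.680 and 12.5 CPM. These values rest largely on a cluster of 198 members. In the other members, without thinning, Kdr was at 2.15, Lmo2 at 3.84, Tal1 at 0.804, Fst at 0.752, Foxd1 at 0.881 and Etv2 at 18.8 CPM. Irx3, Irx5, Kdr, Lmo2, Tal1, Fst and Foxd1 reached 10 CPM only in the members without Dlx5 or Dlx6. Their directions and the endothelial count are therefore a description. The epithelial list moved with the split too, summed to 54.5 CPM with and 85.6 CPM without Dlx5 or Dlx6, and 2 of 2 compared were lower with them; its part was not tested.

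Of the groups compared, cells with Sox10 differed from the members in the smallest share of genes. The 1511 Sox10-positive cells, of which 1336 met every other condition of the rule, differed in 21 of 7428 genes (0.283%), with 13 (0.175%) higher in the members and 8 (0.108%) lower. Sox10 itself, which the rule used, was 1 of the 8. Pdgfra, which the rule did not use, was at 46.8 CPM in the members and 50.7 CPM in the Sox10-positive cells. Among the higher genes were arch patterning genes, 2 of 4 compared Dlx genes and 2 of 4 distal genes, with Barx1 at 46.2 against 16.8 CPM, Dlx5 at 107 against 60.8 CPM, Dlx6 at 59.7 against 33.7 CPM, Msx1 at 69.8 against 43.0 CPM and Msx2 at 42.7 against 26.3 CPM. Genes of other kinds were higher as well. Tagln, a smooth muscle protein, was at 22.8 against 9.82 CPM, Lmo2 at 13.3 against 6.37 CPM and Etv2 at 34.8 against 20.7 CPM. These 3 values rest on 1 cluster of 198 members, and in the other members Tagln was at 8.4 CPM, Lmo2 at 3.84 CPM and Etv2 at 18.8 CPM, each below the level in the Sox10-positive cells. Among the lower genes were Erbb3, the neuregulin receptor of crest and glia, at 8.42 against 16 CPM, and Phactr1, a regulator of actin, at 31.8 against 59.1 CPM. Of the 1511 cells, 1035 held a single Sox10 UMI, and whether members with 0 UMIs lacked the transcript or were not sampled for it cannot be told apart.

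The comparison with the Epcam-positive cells addressed ligands and receptors of arch signalling. Edn1, the endothelin ligand, was at 3.05 CPM in the members and 82.7 CPM in the Epcam-positive cells, and its receptor Ednra at 15.9 against 2.49 CPM. Pdgfa, the ligand of Pdgfra, was at 17.9 against 545 CPM, and the second PDGF receptor Pdgfrb at 55.9 against 3.85 CPM. Edn1 and Pdgfa were higher in the Epcam-positive cells, and Ednra and both PDGF receptors in the members. Apart from Pdgfa, these genes reached 10 CPM only in the group where they were higher, so their directions are a description. The second endothelin receptor, Ednrb, was too low to be compared, at 0.605 against 4.14 CPM. Fgf8, the epithelial FGF of the arch, was at 4.19 against 117 CPM, and its receptor gene Fgfr1 at 46.2 against 63.2 CPM, with no call. Nr2f1 (GRCm38 chromosome 13, 78188973 to 78199757, minus strand) was at 263 against 12.3 CPM, a log2 ratio of 4.42 (4.26 to 4.58), Mef2c at 186 against 9.37 CPM, and Crabp1, a retinoic acid binding protein of crest, at 1499 against 219 CPM. All 4 compared Dlx genes were higher, with a median log2 ratio of 2.70. The Dlx list summed to only 34.8 CPM in the Epcam-positive cells, so not all 4 reached 10 CPM there. Of the neural crest list 6 of 8 compared genes were higher and 1 lower (median 1.81), with Sox9, a crest and cartilage factor, at 118 against 22 CPM. Mef2c, some of the Dlx genes and Tfap2b of the crest list were compared only through their level in the members. Fgf8 was compared only through the Epcam-positive cells, so these directions and counts are a description.

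Other lists moved mostly the other way or were mixed against the Epcam-positive cells, where 16.6% of all genes were lower. Of 14 compared PDGF, chemokine and guidance genes 11 were lower and 2 higher (median -1.17), the chemokine gene Cxcl12 at 11.8 against 87.3 CPM. Of 9 proximal and maxillary genes 7 were lower and Nr2f1 alone higher (median -1.41), the Notch ligand gene Jag1 at 8.93 against 53.5 CPM and the homeobox gene Meis2 at 190 against 512 CPM. Genes under 10 CPM in the members, such as Jag1 and Postn, were compared only through the Epcam-positive cells. The counts of these lists are therefore a description. The names of these arch lists come from mesenchyme, and several of their genes were thus at higher levels in the epithelial cells. Of 6 distal genes 3 were higher and 2 lower (median 0.24), and of 3 intermediate genes 1 was higher, Barx1 at 46.2 against 20.8 CPM, and 2 lower (median -2.67). In cells with Xist and no Y-linked UMI the log2 ratio of Barx1 with 5 CPM added went from 0.99 to 0.29, under the limit. Hedgehog genes were lower in 5 of 7 and higher in 1 (median -0.91), WNT genes lower in 5 of 9 and higher in 1 (median -0.62), and BMP and TGF-beta genes lower in 4 of 10 and higher in 1 (median -0.49). In the FGF list 3 of 9 were lower and 1 higher (median -0.41), in the retinoic acid list 3 of 7 lower and 2 higher (median -0.11), and in the endothelin list 3 of 7 lower and 2 higher (median 0.02). Matrix genes split evenly, 4 higher and 4 lower of 12 (median -0.16), with Hapln1, a hyaluronan link protein, at 74.7 against 16.3 CPM and Postn, periostin, at 8.98 against 35.7 CPM. Cell cycle genes were lower in 4 of 10 and higher in 0 (median -0.25), Mki67, a proliferation marker, at 223 against 348 CPM. The log2 ratio of Mki67 with 5 CPM added, -0.63, was -0.58 in thinned cells and -0.52 with the rule applied to thinned cells, both under the limit.

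Markers of further cell types were low in the members in this comparison too. The endoderm list summed to 8.33 CPM against 252 CPM, and the neuron and placode list to 11.9 against 121 CPM. Their most abundant genes in the members were Nkx2-3, at 5.06 CPM, and Sox2, at 7.12 CPM, so the 3 and 1 genes compared entered only through the Epcam-positive cells and were lower. The core mesoderm list gave 1 higher, Ebf3, and 2 lower of 3. The head mesoderm list gave 1 higher, Foxc1, and 1 lower of 2, and the cardiac and skeletal lists 1 lower each of 1. Each lower gene of these lists was under 10 CPM in the members and so entered only through the Epcam-positive cells. Of 2 genes of anterior-posterior identity, Otx2, a head organiser gene, was lower at 4.57 against 147 CPM and Alx1, a frontonasal homeobox gene, higher at 13.5 against 1.04 CPM. No compared gene of the endothelial (1) or blood (4) lists was called. Outside the lists, Hopx, an atypical homeobox gene, was at 63.4 against 2.13 CPM, and Gap43, a growth cone protein, at 123 against 13.2 CPM. On the other side, Igfbp5, an IGF binding protein, was at 25.6 against 1180 CPM.

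Against all 9584 other kept cells at once, 59 of 7925 genes (0.744%) were higher in the members and 555 (7.0%) lower, or 7.75% in either direction. These other cells were a mixture that included the Hand2-positive and Sox10-positive mesenchyme, and 3819 of them fell in none of the marker groups. Markers of later skeletal fate were low in the members, with the bone factors Runx2 at 1.82 CPM and Sp7 at 0.218 CPM. Hox transcripts were near 0, with Hoxa2, the selector gene of the second arch, at 0.145 CPM.

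The members were not uniform in depth. In 804 of them (25.4%) mitochondrial genes gave under 0.5% of UMIs, and the median depth of these was 4169 UMIs against 15863 in the rest. Such cells were 8.26% of Hand2-positive, 13.1% of Epcam-positive, 9.79% of Sox10-positive and 18.9% of all kept cells. Of the 743 members under 6000 UMIs, 651 were among them. The members thus held a larger share of shallow cells with little mitochondrial RNA than the groups they were compared with. Haemoglobin counts rested on 6 members with at least 50 haemoglobin UMIs, which held 33709 of 40021 (84.2%). Without these the members held 153 CPM of haemoglobin, and the other groups, without such cells, 132 to 153 CPM. Scrublet called 24 members doublets (0.759%), against 2.60% of all kept cells.

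Clustering of the members with the listed genes left out gave 3 clusters. Cluster 1, of 2060 cells (65.2%), had a median depth of 16159.5 UMIs and was led by Plxna4, a semaphorin receptor, Wnt5a and Tnfaip6. Cluster 2, of 902 cells (28.5%), had a median depth of 4416 UMIs, and 736 of its cells were cells with under 0.5% mitochondrial UMIs. Of 7405 genes compared with the other members, 2 were higher in cluster 2 and 1169 lower. Its leading genes, Rps26 and Eif2s2, were under the 1.5-fold limit, at log2 ratios of 0.57 and 0.56. They belong to the translation machinery and no cell type is named from them. Dlx5 or Dlx6 UMIs were found in 54.9% of cluster 1 and 49.8% of cluster 2 at 6000 UMIs, on the 237 cells of cluster 2 that were deep enough.

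**Figure D4:**
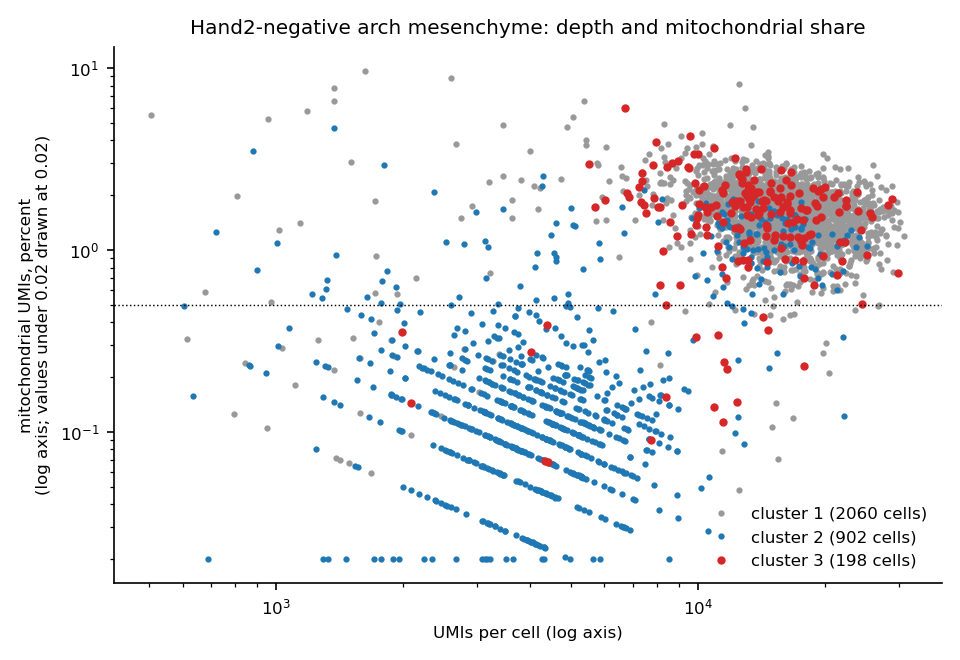
UMIs per cell (log axis) and mitochondrial share in percent (log axis) of the 3160 members, coloured by cluster, with a dotted line at 0.5%. The 902 cells of cluster 2 lie mostly under the line at low depth, with a median of 4416 UMIs.

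Cluster 3, of 198 cells (6.27%), had a median depth of 13186 UMIs, and 11 of its cells (5.56%) were called doublets. Its leading genes were haemoglobins, Fst, Tagln, Lmo2, Hhex, Kdr and Foxd1, and a cluster so led was given no name. All 6 haemoglobin-rich members lay in it, so levels are given for its other 192 cells. Etv2 was at 258 CPM there (239 to 279), at 18.8 CPM in clusters 1 and 2 together and at 104 CPM in 397 Cdh5-positive cells. Lmo2 was at 152, 3.84 and 145 CPM in the same order, Tal1 at 63.9, 0.804 and 44.3 CPM, and Kdr at 104, 2.15 and 289 CPM. These are genes of vessel and blood precursors, and they were found in a minority of the cluster, Etv2 in 33.9%, Lmo2 and Kdr each in 34.9% and Tal1 in 21.9% of its 192 cells. Core mesoderm cells held Etv2 at 83.1, Lmo2 at 59.4, Tal1 at 5.14 and Kdr at 41.0 CPM. Lmo2 was found in 32.7% of core mesoderm and 27.2% of Epcam-positive cells, and Kdr in 18.2% and 2.69%. Markers of formed vessels stood lower than in the Cdh5-positive cells. That group was picked for Cdh5, of which the rule allowed the members 0 UMIs, so the lower levels are only a description. In cluster 3, clusters 1 and 2 and the Cdh5-positive cells, Pecam1, a junction protein of endothelium, was at 3.06, 0.596 and 89.3 CPM. Tie1, an endothelial receptor, was at 2.30, 0.518 and 40.6 CPM in the same order. Cldn5, a tight junction protein of vessels, was at 81.5, 1.81 and 327 CPM. Emcn, a sialomucin of venous endothelium, was at 73.5, 3.42 and 349 CPM. Both were thus above their level in the other members.

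Cluster 3 also differed from vessel cells in the other direction. Fst was at 101 CPM in it, at 2.02 CPM in the Cdh5-positive cells and at 58.3 CPM in 661 core mesoderm cells, and Foxd1 at 72.3, 3.54 and 37.6 CPM. Mesenchymal genes that the rule did not use were at lower levels than in the other members, with Prrx2 at 227 against 341 CPM and Pdgfra at 30.2 against 48.1 CPM. Dlx5 was at 13.4 against 113 CPM, and a Dlx5 or Dlx6 UMI was found in 7.89% of its cells at 6000 UMIs, a share no higher than the 11.3% in the Epcam-positive cells. The rule excluded Cdh5 and limited core mesoderm genes but named none of Etv2, Kdr, Fst or Foxd1, so cells of this kind were within it. Etv2 was not limited to cluster 3. It was found in 18.4% of the cells of clusters 1 and 2, in 14.7% of core mesoderm cells and in 11.5% of Hand2-positive cells. Of Epcam-positive cells, with a median of 11257 UMIs, 2.61% held it.

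**Figure D5:**
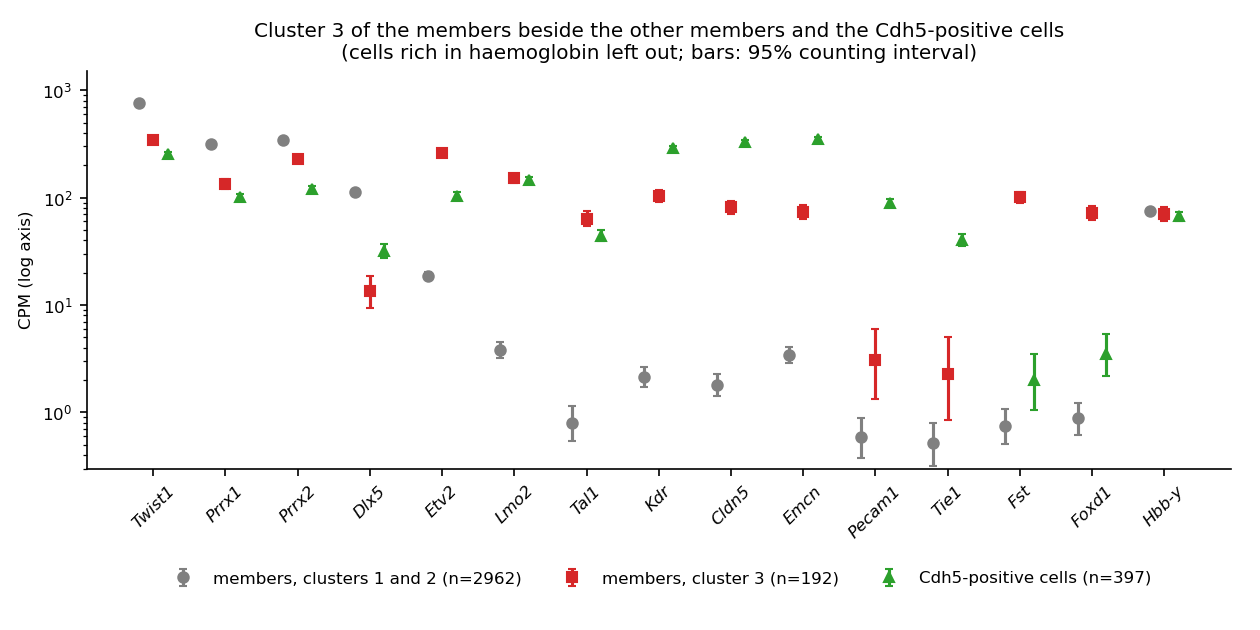
CPM (log axis) of vessel, blood precursor and mesenchymal genes in cluster 3, in clusters 1 and 2 and in Cdh5-positive cells, without haemoglobin-rich cells and with 95% counting intervals. Etv2 is at 258 CPM in cluster 3 and Pecam1 at 3.06 CPM, below the 89.3 CPM of the Cdh5-positive cells.

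In the sorted epithelium at E12.0 the same rule found 0 of 11355 kept cells, which allows a share of up to 0.0264% by the limit of 3 counts and 0.0325% by the exact binomial interval. Twist1 was at 0.180 CPM and Cdh1, epithelial cadherin, at 105 CPM there, so no later mesenchyme was available to set beside the members.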

How the data were processed

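The authors deposited raw UMI counts per gene and barcode for 2 libraries, made with 10x Genomics 3' chemistry and Cell Ranger on GRCm38. The methods name Cell Ranger 2.0.0, while the file headers name 3.1.0 for E12.0 and 6.1.2 for E9.5. The members and the 25 gene lists (260 genes) were chosen with earlier results of these data known. Cells with 200 to 5500 genes and at most 10% mitochondrial UMIs were kept, and no doublet was removed. Counts were summed per group and given as CPM with exact Poisson intervals, and ratios of CPM with exact conditional intervals. Genes at 10 CPM in either group were compared, and called at a 1.5-fold ratio with 5 CPM added. Named genes were those of the lists and the 10 largest ratios outside them in each direction. Lmo2, Tal1, Hhex, Tagln, Mab21l1 and Unc5c were named after their values were seen. Thinning was to 6000 UMIs per cell. Members were clustered in Seurat 5.3.0 with SCTransform (sctransform 0.4.2), leaving out listed genes, and doublets were called by Scrublet in scanpy 1.11.5. The alternatives tried were other thresholds, depths, weights and subsets of cells.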

Additional observations from a re-analysis of the deposited data

How the results depend on the processing

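The counts of genes called moved with the thresholds and the depth of the cells. Against Hand2-positive mesenchyme, the 36 higher genes became 65 with the rule applied to thinned cells, 65 in the middle range of depth (cells between the quartiles of UMIs over the kept cells), 56 in cells with Xist and no Y-linked UMI, 9 at a minimum of 50 CPM and 8 at a 2-fold ratio. The 233 lower genes became 352 in the middle range of depth, 141 without cells with Hoxa2 or Hoxb2, 154 in cells with Y-linked UMIs, 359 with cells weighted equally, 64 at 50 CPM, 109 at 2-fold and 66 in cells with Dlx5 or Dlx6. Against all other cells, the 59 higher genes became 154 with the rule applied to thinned cells, 109 in the middle range, 90 with 1 CPM added, 31 at 50 CPM and 7 at 2-fold, and the 555 lower genes 127 at 50 CPM, 885 with no filter and 285 at 2-fold. Against Epcam-positive cells, the 444 higher genes became 217 at 50 CPM and 175 at 2-fold, and the 1375 lower genes 426 and 665. The median of the proximal list, -0.13, became 0.53 at 50 CPM (3 genes) and 0.0899 in cells with Dlx5 or Dlx6, and that of the distal list, -1.03, became -0.62 with no filter and -0.35 in cells with Dlx5 or Dlx6. The number of members, 3160, was 1519 in the middle range of depth. Against Hand2-positive cells Fgf8 turned to 0.075 in cells with Dlx5 or Dlx6 and Kdr to -0.14 without cluster 3, against Epcam-positive cells Foxd1 to -0.0309 without cluster 3, and against all other cells Hbb-bh1 to 0.10, Hbb-y to 0.0608 and Hba-a1 to 0.0615 without haemoglobin-rich cells. Of 84 named genes past the ratio against Hand2-positive cells, counting also those under 10 CPM in both groups, 40 stayed past it under every alternative, of 162 against Epcam-positive cells 140, and of 129 against all other cells 113. The cells with Dlx5 or Dlx6, and the sets without low-mitochondrial cells, without cluster 3 and without haemoglobin-rich cells, were chosen after seeing the data, and the last 3 moved no count of calls by over 1.5 times. No paired analysis was possible because each stage has 1 library.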
